A study of Mus musculus with 10 samples.

Results

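The genes described here are 49 nucleolar factors of ribosome production, out of 11228 genes in an expression table of mouse myotubes. The rule takes them by name: 11 well-known factors (Npm1, Ncl, Fbl, Dkc1, Gar1, Nhp2, Bop1, Pes1, Wdr12, Rrs1 and Nolc1) and 38 genes whose symbols begin with Nop, Rrp, Utp or Nol and a number or name a subunit of RNA polymerase I. A mean of at least 1 FPKM (fragments per kilobase of transcript, scaled to the mapped fragments of the library) was required, which all 49 reached. The rule uses no measured difference, but it was set with earlier results of these data known. Nol3, which encodes a repressor of apoptosis known from muscle, and Nol4 match by symbol alone, so 47 genes remain as nucleolar factors proper.

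The libraries came from mouse myotubes, the multinucleate cells formed by fusing myoblasts, after 2 days of differentiation in culture. Neither the mouse strain nor the origin of the myoblasts was stated in the descriptions used. The muscle transcript Charme, which codes for no protein, was depleted with gapmers, antisense oligonucleotides that recruit RNase H, and polyadenylated RNA was sequenced from 2 libraries with the gapmer GAP-2, 2 with the set GAP-2/3 and 2 with the scrambled gapmer GAP-scr. All 3 groups were treated with a gapmer, and the names allow that GAP-2/3 includes GAP-2. A ChIRP-seq experiment in the same kind of cells, in which DNA bound with Charme was pulled down by probe sets named even and odd and set beside input and LacZ probes, gave 1 list of merged peaks.

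A ribosome begins as a long precursor RNA that RNA polymerase I transcribes from the ribosomal DNA inside the nucleolus. Small nucleolar ribonucleoproteins (snoRNPs) of the box C/D type direct ribose methylation of that RNA and those of the box H/ACA type direct pseudouridylation, while the small subunit processome and a series of large subunit assembly factors fold, cut and export the precursors. In muscle, the pathway is known for high activity in dividing myoblasts and for its response to growth stimuli.

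The myotube label was borne out by its markers, of which 11 were tested and summed to between 6799 and 12100 FPKM per library. Their sums were lower in all gapmer libraries than in both GAP-scr libraries. Defining markers of other cells were scarce: 0 of 6 endothelial markers, 2 of 8 macrophage markers (without Ptprc, Adgre1 or Csf1r) and 2 of 6 adipocyte markers (without Adipoq or Plin1) were among the genes tested, while 5 of 8 fibroblast markers were. The median gene lay between 11.9 and 13.3 FPKM in all libraries, and replicates correlated across genes at 0.989 to 0.995 on the log2(FPKM + 1) scale. FPKM values keep no read number, so depth and counting error are unknown. Each group's pair of libraries is described as biological replicates, with no word on separate cultures; p-values here reflect only how far those pairs differ, and part of that may be technical. The level of Charme itself was not analysed here, and the groups rest on their labels. In such bulk libraries fewer cells of a type and less RNA per cell cannot be told apart.

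Start-site sequences were taken from RefSeq (GRCm38.p6), 250 bases before to 50 after the start, and were present for 38 of the 49 genes. Each was searched on both strands for CACGTG, an E-box that MYC and MAX bind among others, for CCGGAAG, a core of ETS family sites, and for ATGGCG, a core of YY1 sites that can also be a start codon with the codon after it. CACGTG stood in 7 of the 38 genes (18.4%), beside 12.3% of the 8437 genes of the expression table with a promoter and 7.15% of all 32851 RefSeq promoters. CCGGAAG stood in 13 (34.2%), beside 21.0% and 8.86%, and ATGGCG in 5 (13.2%), beside 18.6% and 8.93%. The 4 promoters below are shown because they are those of genes that changed with GAP-2/3 and hold a searched motif, in capitals; Nol11 and Utp3 were higher, Nol9 and Polr1b lower.
Nol11 promoter, chr11:107189332-107189631, minus strand: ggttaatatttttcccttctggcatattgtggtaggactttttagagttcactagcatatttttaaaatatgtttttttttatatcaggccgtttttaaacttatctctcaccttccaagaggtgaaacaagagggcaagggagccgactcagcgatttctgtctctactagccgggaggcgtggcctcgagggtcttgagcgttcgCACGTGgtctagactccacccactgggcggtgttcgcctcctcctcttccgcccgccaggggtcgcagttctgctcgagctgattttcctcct
Utp3 promoter, chr5:88554212-88554511, plus strand: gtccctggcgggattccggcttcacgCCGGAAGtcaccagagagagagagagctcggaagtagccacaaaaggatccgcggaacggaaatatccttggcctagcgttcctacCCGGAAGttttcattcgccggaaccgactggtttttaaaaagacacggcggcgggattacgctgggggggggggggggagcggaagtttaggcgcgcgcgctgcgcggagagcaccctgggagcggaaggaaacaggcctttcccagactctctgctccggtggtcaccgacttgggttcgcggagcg
Nol9 promoter, chr4:152039071-152039370, plus strand: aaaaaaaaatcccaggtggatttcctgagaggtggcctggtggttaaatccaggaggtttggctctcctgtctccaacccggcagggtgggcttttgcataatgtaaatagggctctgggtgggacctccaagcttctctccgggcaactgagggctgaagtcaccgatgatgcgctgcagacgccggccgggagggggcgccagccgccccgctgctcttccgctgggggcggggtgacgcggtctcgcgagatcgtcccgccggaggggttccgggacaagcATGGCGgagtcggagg
Polr1b promoter, chr2:129100746-129101045, plus strand: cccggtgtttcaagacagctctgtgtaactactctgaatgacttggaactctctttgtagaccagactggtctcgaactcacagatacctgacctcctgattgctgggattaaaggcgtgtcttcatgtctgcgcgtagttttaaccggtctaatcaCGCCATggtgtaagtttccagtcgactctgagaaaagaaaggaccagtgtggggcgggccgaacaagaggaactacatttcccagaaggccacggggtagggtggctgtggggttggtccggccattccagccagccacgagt

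Nol11 carries its E-box 43 bases before the start, and Utp3 a pair of ETS cores further upstream. The other 8 changed genes with a promoter in the table, among them Ncl, Nop56, Nop58 and Dkc1, held none of the 3 motifs in this window. Of the 26 genes with a promoter that were not called with GAP-2/3, CCGGAAG stood in 12, CACGTG in 6 and ATGGCG in 3. Of the 8 with a promoter called higher, CCGGAAG and CACGTG stood in 1 each. ATGGCG stood in 2 of the 4 called lower. A relation of motifs to the changes was not tested. A match is a run of letters, not a measured site.

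The first question was which of the factors differed between each gapmer treatment and GAP-scr. Against GAP-scr, GAP-2 raised 2 of the 49, Npm1 and Utp14a, and lowered 1, Rrp12 (limma on log2(FPKM + 1), adjusted p under 0.05 over all genes tested). Among all 10993 genes tested 14.6% passed in this comparison, 10.4% higher and 4.18% lower, against 6.12% of the factors. GAP-2/3 raised 11 and lowered 6, together 34.7% of the factors, beside a background of 39.3% of all genes, 28.0% higher and 11.3% lower. The higher ones were Npm1, Ncl, Nop56, Nop58, Dkc1, Utp14a, Utp11l, Utp6, Utp3, Nol11 and Rrp8, and the lower ones Rrp12, Bop1, Nol9, Rrp9, Polr1b and Rrp1b. With both directions together, neither treatment had a larger share of the factors past the threshold than of all genes, and the factors that passed went in both directions.

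The median log2 change of the factors was 0.12 with GAP-2 and 0.14 with GAP-2/3, where all genes had medians of 0.07 and 0.13. Without Nol3 and Nol4 it was 0.12 and 0.20, and after scaling to one median 0.06 and 0.08, where all genes had 0.00 and 0.03. After each library was scaled to one median, GAP-2/3 raised 5 and lowered 9, where 33.8% of all genes passed (17.5% higher, 16.3% lower). GAP-2 then raised 1 and lowered 2, where 12.3% of all genes passed (6.44% higher, 5.89% lower). A count of factors in 1 direction therefore depended on the scaling, while in limma the sign of each of the 17 genes named above held under both scalings tried, one median and quantile normalization. Values relative to the median gene are given beside the largest changes.

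The libraries of a treatment and of GAP-scr often did not overlap, in the factors and in other genes alike. With GAP-2, 21 factors lay higher and 7 lower in both treated libraries than in both controls, together 57.1%, beside 62.2% of all genes (39.8% higher, 22.4% lower). With GAP-2/3, 24 lay higher and 13 lower, together 75.5%, beside 69.0% of all genes (46.7% higher, 22.3% lower). Between the arms, 14 lay higher and 15 lower in GAP-2/3 than in GAP-2, together 59.2%, beside 61.5% of all genes (38.5% higher, 23.0% lower). By direction the shares of the factors were 42.9% higher and 14.3% lower with GAP-2, 49.0% and 26.5% with GAP-2/3, and 28.6% and 30.6% between the arms.

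**Figure D1:**
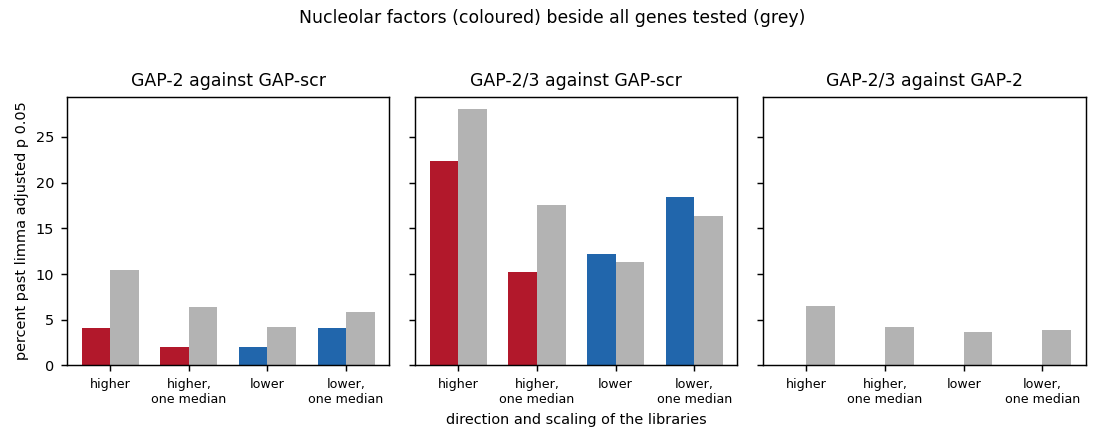
Percent of the 49 factors (coloured bars) and of all 10993 genes tested (grey bars) past a limma adjusted p of 0.05, by direction, for libraries as deposited and scaled to one median. With GAP-2/3 the factors stood at 22.4% higher and 12.2% lower as deposited, and in the comparison of GAP-2/3 with GAP-2 no coloured bar appears because no factor passed.

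**Figure D2:**
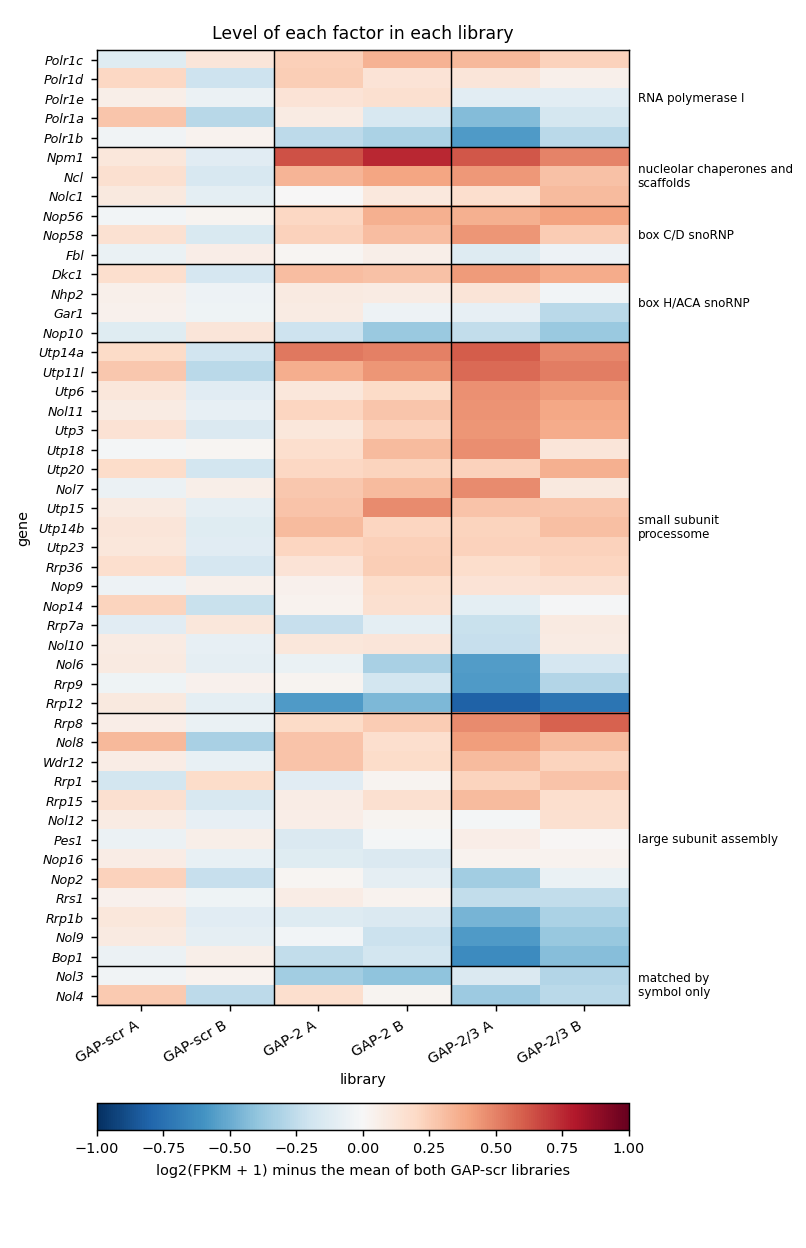
Level of each of the 49 factors (rows, grouped by role) in each of the 6 libraries (columns), as log2(FPKM + 1) minus the mean of both GAP-scr libraries. Npm1 is red in all 4 gapmer libraries and Rrp12 blue in all 4, while within the small subunit processome and the large subunit factors both colours occur.

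**Figure D3:**
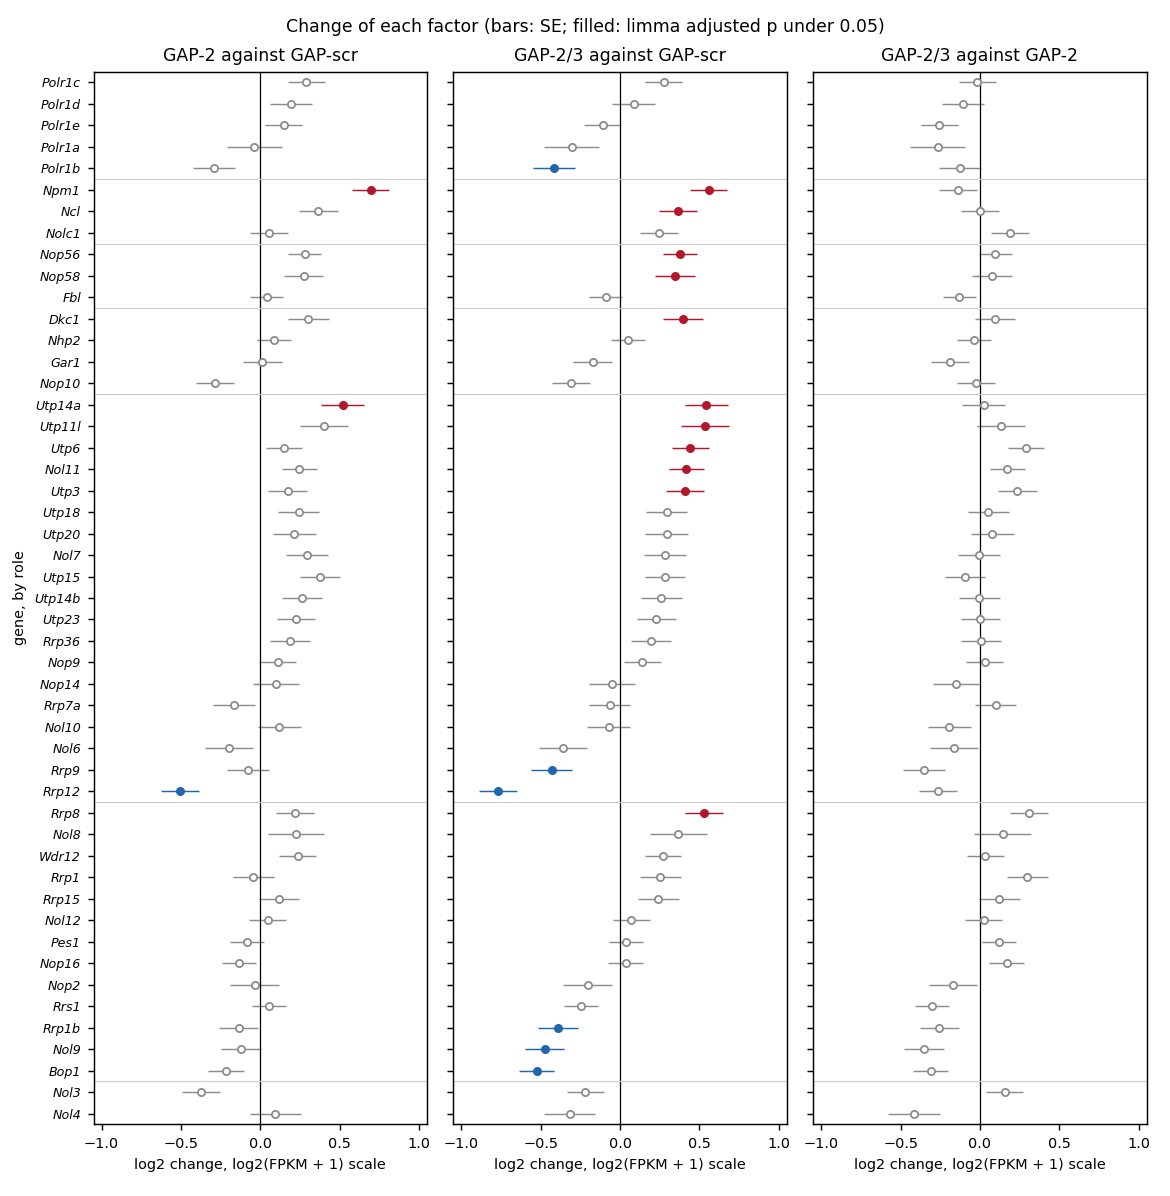
Log2 change of each factor (x axis, log2(FPKM + 1) scale, bars SE) in the 3 comparisons, with genes grouped by role. Filled red points were higher and filled blue points lower at a limma adjusted p under 0.05: 3 for GAP-2, 17 for GAP-2/3 and none for GAP-2/3 against GAP-2.

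Npm1, which encodes the nucleolar chaperone nucleophosmin, was by far the most abundant of the factors, with a mean of 674 FPKM (98.8th percentile of the genes tested) where the median factor had 21.5. It stood at 534 and 456 FPKM in GAP-scr, 768 and 833 in GAP-2, and 760 and 694 in GAP-2/3. All 4 gapmer libraries lay above both controls. The log2 change was 0.70 ± 0.12 (SE) with GAP-2 (limma adjusted p = 0.00342) and 0.56 ± 0.12 with GAP-2/3 (limma adjusted p = 0.00408), or 0.63 and 0.43 relative to the median gene. Without GAP-2/3 replicate A its change with GAP-2/3 did not pass (limma adjusted p = 0.0677). Npm1 lies at chr11:33152498-33164142 in RefSeq (GRCm38.p6), and processed copies of it exist in the genome, so some of its reads may be uncertain.

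Npm1 is also the single factor under a ChIRP peak, which was known when the genes were chosen, beside 1.79% of the 10266 tested genes matched by symbol. The peak covers 82 bases, chr11:33163097-33163178, and its deposited score of 2253 ranks 520th among 798 peaks, whose scores run from 49.2 to 6384. It lies 964 bases inside one end of the gene. The submitters' notes name mm9, but the peak furthest along chromosome X ends at 170732078, beyond the end of that chromosome in mm9 as generally known, so the positions were read as GRCm38. The scores are the authors', the list pools probe sets, and a peak in 1 gene allows no test of a relation to its level.

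The other scaffold proteins moved less. Ncl, nucleolin, an RNA-binding protein of the nucleolus, had 94.4 and 75.6 FPKM in GAP-scr, 107 and 111 in GAP-2, and 114 and 104 in GAP-2/3. All 4 gapmer libraries lay above both controls, and GAP-2 lay inside the range of GAP-2/3, but the GAP-scr libraries differed by more than the libraries of either gapmer group. It rose with GAP-2/3 by 0.36 ± 0.12 (limma adjusted p = 0.0347) and, at the same 0.36 ± 0.12, did not pass with GAP-2 (adjusted p = 0.067). The rise with GAP-2/3 did not pass after scaling to one median, nor without any 1 library other than GAP-scr replicate A (adjusted p = 0.216 at most). Nolc1, a chaperone of snoRNPs, had 20.2 and 17.5 FPKM in GAP-scr, 18.9 and 20.4 in GAP-2, and 21.3 and 23.7 in GAP-2/3, and did not pass in either arm.

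**Figure D4:**
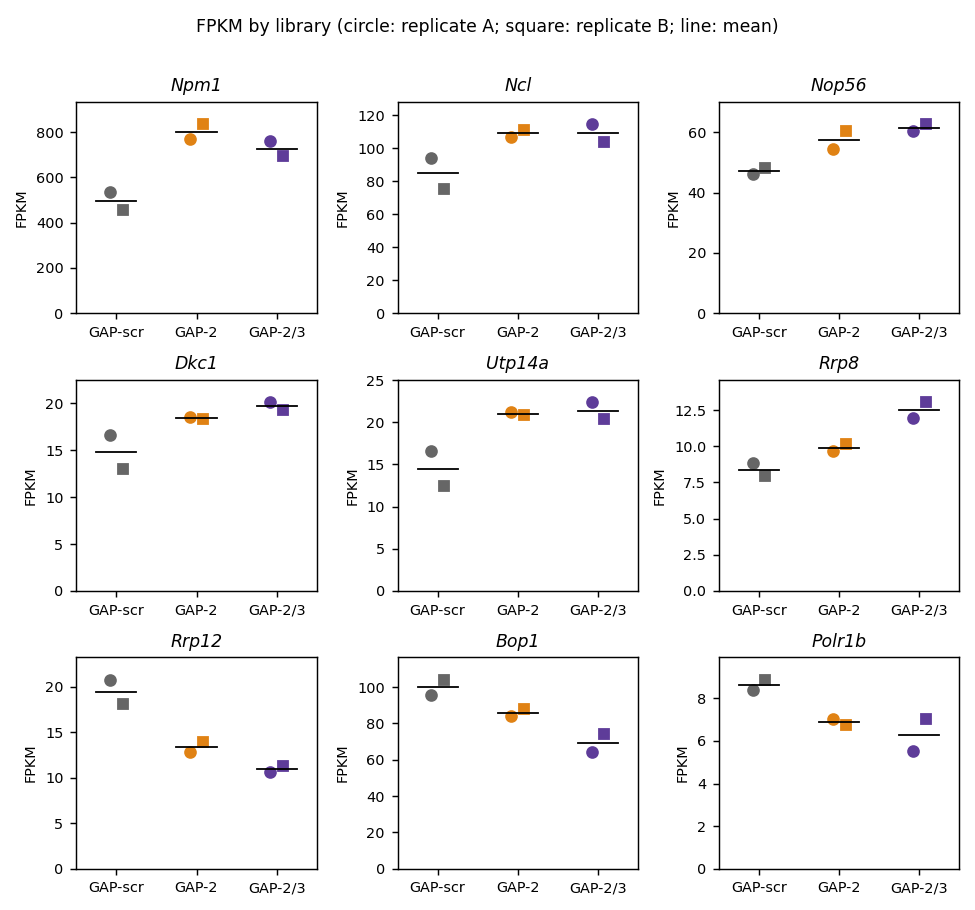
FPKM (y axis from 0) of 9 factors in each library by group; circles are replicate A, squares replicate B and lines the mean of both. Npm1, Ncl, Nop56, Dkc1, Utp14a and Rrp8 lie higher in both GAP-2/3 libraries than in both GAP-scr libraries, and Rrp12, Bop1 and Polr1b lower.

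Among the RNA polymerase I subunits 1 of 5 passed with GAP-2/3, Polr1b, which was lower (20%, beside 11.3% of all genes lower). With GAP-2 0 of 5 passed, beside 14.6% of all genes. In limma 2 of the 5 had an unadjusted p under 0.05 with GAP-2, beside 3492 of the 10993 genes tested. Polr1b, the second-largest catalytic subunit, had 8.41 and 8.86 FPKM in GAP-scr, 7.02 and 6.74 in GAP-2, and 5.50 and 7.01 in GAP-2/3. Both gapmer groups lay below the controls without overlap, and the change with GAP-2/3 was -0.42 ± 0.13 (limma adjusted p = 0.0256), which did not pass without GAP-2/3 replicate A (0.196) or without GAP-scr replicate B. Polr1c, which RNA polymerase III shares, had 37.5 and 44.5, 48.2 and 52.2, and 51.2 and 48.0 FPKM in the same order of groups, with a limma adjusted p of 0.114 and 0.0819 for the arms. In the ratio of Polr1b to Polr1c within a library, which a factor common to the library cannot move, GAP-scr had 0.225 and 0.199, GAP-2 0.146 and 0.129, and GAP-2/3 0.107 and 0.146. This ratio and those given for other factors below were formed after the changes were known, so they are a description. Polr1d, also shared with RNA polymerase III and the most abundant subunit, ran at 162 and 121 FPKM in GAP-scr and from 145 to 166 in the gapmer libraries, inside the spread of the controls for 3 of these 4. Polr1a, the largest catalytic subunit, had 21.1 and 14.1, 18.4 and 15.4, and 12.5 and 15.2 FPKM and did not pass, its GAP-scr libraries lying furthest apart. Polr1e, a subunit with a role in initiation, had 8.19 and 7.44, 8.66 and 8.84, and 7.17 and 7.17 FPKM, above the controls with GAP-2 and below them with GAP-2/3. That difference between the arms did not pass (-0.26 ± 0.12, limma adjusted p = 0.187).

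In the box C/D snoRNP, 2 of 3 core proteins rose with GAP-2/3, where 28.0% of all genes did. None passed with GAP-2, beside 14.6% of all genes. In limma 1 of the 3 had an unadjusted p under 0.05 with GAP-2, beside 3492 of the 10993 genes tested. Nop56, a scaffold protein of the particle, had 46.1 and 48.0 FPKM in GAP-scr, 54.4 and 60.5 in GAP-2, and 60.3 and 62.6 in GAP-2/3. Its change was 0.38 ± 0.11 with GAP-2/3 (limma adjusted p = 0.0163) and 0.28 ± 0.11 with GAP-2 (0.0968). Nop58, the partner of Nop56 in the particle, ran at 71.7 and 57.7, 75.8 and 80.1, and 87.9 and 76.7 FPKM, a rise of 0.35 ± 0.13 with GAP-2/3 (limma adjusted p = 0.0464). Both calls were lost after scaling to one median and without either GAP-2/3 library, and that of Nop58 also without GAP-scr replicate B or either GAP-2 library (0.284 at most). Fibrillarin, Fbl, the methyltransferase of the particle, stayed between 65.5 and 75.1 FPKM in all 6 libraries and did not pass. The ratio of Nop56 to Fbl was 0.674 and 0.639 in GAP-scr, 0.747 and 0.809 in GAP-2, and 0.921 and 0.906 in GAP-2/3. The 3 groups did not overlap in it. In the ratio of Nop58 to Fbl, GAP-scr replicate A lay between both GAP-2 libraries, so GAP-scr and GAP-2 overlapped. Both GAP-2/3 libraries lay above all others in that ratio as well.

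The box H/ACA snoRNP had 1 of 4 members past the threshold with GAP-2/3 (25%, beside 39.3% of all genes) and 0 of 4 with GAP-2 (beside 14.6%). In limma 2 of the 4 had an unadjusted p under 0.05 with GAP-2, beside 3492 of the 10993 genes tested. Dkc1, the pseudouridine synthase dyskerin, had 16.7 and 13.0 FPKM in GAP-scr, 18.5 and 18.3 in GAP-2, and 20.1 and 19.3 in GAP-2/3, all gapmer libraries above both controls. It rose by 0.40 ± 0.13 with GAP-2/3 (limma adjusted p = 0.0288), a call lost under scaling to one median (0.0934), without GAP-scr replicate B and without either GAP-2/3 library (0.155 at most). Nop10, the smallest protein of the particle, pointed the other way, with 108 and 128, 102 and 90.8, and 98.96 and 90.7 FPKM. Its log2 change of -0.31 ± 0.12 with GAP-2/3 missed the threshold (limma adjusted p = 0.0571) and passed after scaling to one median (-0.43, adjusted p = 0.0294). Gar1, with 12.7 and 11.9, 13.1 and 11.8, and 11.6 and 10.1 FPKM, and Nhp2, between 51.7 and 58.7 FPKM throughout, did not pass. Dkc1 per Nop10 was 0.154 and 0.101 in GAP-scr against 0.181 to 0.213 in the 4 gapmer libraries.

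Of the 19 factors of the small subunit processome and its maturation, GAP-2 raised 1 and lowered 1 (5.26% each, beside 10.4% and 4.18% of all genes). GAP-2/3 raised 5 and lowered 2 (26.3% and 10.5%, beside 28.0% and 11.3% of all genes). The median log2 change of the 19 was 0.19 with GAP-2 and 0.26 with GAP-2/3, against 0.07 and 0.13 for all genes. Rrp12, which acts in maturation and export of the small subunit precursor (chr19:41859483-41896153, GRCm38.p6), had the largest fall of all 49. Its level was 20.7 and 18.1 FPKM in GAP-scr, 12.8 and 13.9 in GAP-2, and 10.6 and 11.3 in GAP-2/3. The 3 groups did not overlap. Rrp12 fell by 0.50 with GAP-2 (SE 0.12, limma adjusted p = 0.0176) and by 0.77 with GAP-2/3 (SE 0.12, limma adjusted p = 0.000741), or by 0.90 relative to the median gene. The fall with GAP-2/3 passed in all 15 alternatives run for single genes, from -0.88 to -0.68, while that with GAP-2 did not pass without either GAP-2 library, nor without both libraries high in ribosomal RNA precursor (0.229).

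Utp14a, a processome protein that works with a helicase (chrX:48256934-48282450), rose in both arms. It had 16.6 and 12.4 FPKM in GAP-scr, 21.2 and 20.8 in GAP-2, and 22.4 and 20.4 in GAP-2/3, with all gapmer libraries above the controls. The change was 0.52 ± 0.14 with GAP-2 (limma adjusted p = 0.0266) and 0.54 ± 0.14 with GAP-2/3 (limma adjusted p = 0.00933). The call with GAP-2 was lost without any 1 library other than GAP-scr replicate A, after scaling to one median (limma adjusted p = 0.0536) and when only GAP-2 and GAP-scr were fitted, and that with GAP-2/3 without GAP-2/3 replicate A (0.104). Utp14b, an intronless copy of Utp14a that lies within the span of Acsl3, ran from 4.76 to 6.80 FPKM and did not pass. Reads of these copies may be shared, and those of Utp14b with Acsl3 too.

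The other changed processome genes passed with GAP-2/3 alone, though none of them differed between the arms by the direct test. Utp11l had 51.8 and 35.3 FPKM in GAP-scr, 55.3 and 58.4 in GAP-2, and 63.8 and 61.3 in GAP-2/3, a rise of 0.54 ± 0.15 with GAP-2/3 (limma adjusted p = 0.0167). The controls of this gene lay further apart than any other group. Utp6, an RNA-binding repeat protein of the processome, ran at 29.2 and 24.8, 29.2 and 30.8, and 37.4 and 36.5 FPKM, a rise of 0.44 ± 0.11 (limma adjusted p = 0.011). Nol11, which also supports transcription of the precursor RNA, had 26.4 and 23.5, 29.1 and 30.4, and 34.4 and 32.9 FPKM, and Utp3 46.4 and 37.7, 45.5 and 49.2, and 57.2 and 54.5. They rose by 0.42 ± 0.11 and 0.41 ± 0.12 (limma adjusted p = 0.012 and 0.0199). Rrp9, a protein specific to the guide particle of the processome, had 13.3 and 14.2, 14.0 and 11.97, and 8.94 and 10.99 FPKM, and fell by 0.43 (SE 0.13, limma adjusted p = 0.0231). All 5 lost their call without GAP-2/3 replicate A, Utp11l, Utp3 and Rrp9 also without GAP-scr replicate B, and Utp11l, Utp3 and Utp6 without GAP-2/3 replicate B. Utp11l and Utp3 did not pass after scaling to one median either (limma adjusted p = 0.0561 and 0.0795). The remaining 12 factors of this role did not pass in either arm as deposited: Utp14b, Utp15, Utp18, Utp20, Utp23, Nol6, Nol7, Nol10, Nop9, Nop14, Rrp7a and Rrp36. Their log2 changes with GAP-2/3 ran from -0.36 for Nol6, an RNA-associated processome protein, to 0.29 for Utp18. Utp15, a subunit of the part of the processome that also supports transcription, had 6.18 and 5.37 FPKM in GAP-scr, 7.24 and 8.37 in GAP-2, and 7.26 and 7.21 in GAP-2/3, so all 4 gapmer libraries lay above both controls (limma adjusted p = 0.0632 and 0.0898). Nol6 had 14.8 and 13.0, 13.2 and 10.9, and 9.14 and 12.3 FPKM, and was called lower with GAP-2/3 after scaling to one median (-0.47, limma adjusted p = 0.0304).

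Of 13 factors of large subunit assembly, GAP-2/3 raised 1 and lowered 3 (7.69% and 23.1%, beside 28.0% and 11.3% of all genes). With GAP-2 0 of 13 passed in limma, beside 14.6% of all genes. None of the 13 had an unadjusted p under 0.05 there, beside 3492 of the 10993 genes tested. Rrp8, a methyltransferase of large subunit RNA that also acts in silencing of ribosomal DNA, had 8.81 and 7.91 FPKM in GAP-scr, 9.65 and 10.1 in GAP-2, and 11.9 and 13.0 in GAP-2/3. The groups did not overlap, and the rise of 0.53 ± 0.12 with GAP-2/3 (limma adjusted p = 0.0054) passed in all 15 alternatives, from 0.41 to 0.60. The span of Rrp8 shares 796 bases with Ilk, and the library kit keeps strand, but no source at hand says if counting used it.

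Bop1, Pes1 and Wdr12 form one complex in large subunit maturation, and their transcripts did not move alike. Bop1 (chr15:76452988-76477249) had 95.8 and 104 FPKM in GAP-scr, 83.9 and 87.8 in GAP-2, and 64.3 and 74.2 in GAP-2/3. Each group lay below the one before, and Bop1 fell by 0.52 with GAP-2/3 (SE 0.11, limma adjusted p = 0.00415), or by 0.65 relative to the median gene. The fall did not pass without GAP-2/3 replicate A (adjusted p = 0.0615), and the span of Bop1 holds the gene Scx. Pes1 stayed between 55.4 and 64.4 FPKM in all libraries, and Wdr12 had 15.03 and 13.5, 17.6 and 16.4, and 18.0 and 16.8 FPKM, a change of 0.27 ± 0.11 with GAP-2/3 that did not pass (limma adjusted p = 0.0815). Per library, Bop1 stood at 6.37 and 7.67 times Wdr12 in GAP-scr, 4.78 and 5.36 times in GAP-2, and 3.57 and 4.41 times in GAP-2/3, again without overlap. The ratio of Bop1 to Pes1 was 1.63 and 1.62 in GAP-scr, 1.51 and 1.45 in GAP-2, and 0.999 and 1.2 in GAP-2/3. Both ratios were formed after the changes of these genes were known, so they describe the same values and are no further support.

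Nol9, a polynucleotide kinase that processes the spacer of the large subunit precursor, had 26.7 and 23.5, 24.5 and 21.4, and 16.5 and 19.0 FPKM. It fell by 0.48 with GAP-2/3 (SE 0.12, limma adjusted p = 0.0116), and the call was lost without GAP-2/3 replicate A (0.116) and without both libraries high in ribosomal RNA precursor. Rrp1b had 10.3 and 8.67, 8.55 and 8.44, and 6.56 and 7.38 FPKM and fell by 0.39 with GAP-2/3 (SE 0.13, limma adjusted p = 0.0282), a call lost without any 1 library other than GAP-scr replicate B, and without both libraries high in ribosomal RNA precursor (0.194). Its relative Rrp1, more abundant at 79.6 and 103, 83.5 and 92.4, and 106 and 111 FPKM, did not pass (0.25 ± 0.13, limma adjusted p = 0.137). The other 6 factors of this role, Rrs1, Nop2, Nop16, Nol8, Nol12 and Rrp15, did not pass in either arm as deposited, with GAP-2/3 changes from -0.25 (Rrs1) to 0.37 (Nol8). Rrs1, which helps to bring the 5S ribonucleoprotein into the large subunit, had 23.1 and 21.8 FPKM in GAP-scr, 23.7 and 23.0 in GAP-2, and 18.73 and 18.74 in GAP-2/3, lower in both GAP-2/3 libraries than in the other 4. It was called lower with GAP-2/3 after scaling to one median (-0.36, limma adjusted p = 0.0218). Nop2, an RNA methyltransferase, had 40.8 and 29.5, 35.1 and 32.5, and 27.1 and 33.2 FPKM, so the controls spanned both GAP-2 libraries.

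Of the genes matched by symbol alone, Nol3 had 8.52 and 9.04 FPKM in GAP-scr, 6.69 and 6.41 in GAP-2, and 7.86 and 6.98 in GAP-2/3. Its log2 change with GAP-2 was -0.37 ± 0.12 (limma adjusted p = 0.0553), and -0.44 at an adjusted p of 0.0368 after scaling to one median. Nol4 had 5.47 and 3.499, 5.06 and 4.49, and 3.18 and 3.47 FPKM and did not pass.

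A direct comparison of both arms followed. For GAP-2/3 against GAP-2, 0 of the 49 factors passed (limma), beside 10.1% of all genes (6.50% higher, 3.65% lower) and 8.08% after scaling to one median (4.22% higher, 3.86% lower). An unadjusted p under 0.05 in limma was reached by 10 of the 49 factors, beside 2854 of the 10993 genes tested. The smallest limma adjusted p values among the factors were those of Rrs1 and Nol9, 0.0956 and 0.0963, with changes of -0.30 ± 0.11 and -0.35 ± 0.12. With only the libraries of these groups fitted, 4 factors passed as lower and 1 as higher, beside 6.52% and 12.2% of all genes. The longer list of factors called with GAP-2/3 than with GAP-2 is thus not a tested difference between the arms, and both arms share the same 2 control libraries.

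Those control libraries differed in these genes. Of the 49 factors 35 were higher in GAP-scr replicate A than in replicate B, beside 54.3% of all genes, with a median difference of 0.17 on the log2 scale against 0.03. In GAP-2 the number was 21 and in GAP-2/3 it was 24. The ribosomal RNA precursor Rn45s, the RNA with which the pathway begins, was at 3390 FPKM in 1 control library, replicate A. It was at 4090 in the A replicate of GAP-2, while the remaining 4 libraries ran from 93.2 to 176. Polyadenylated RNA holds only a remainder of Rn45s, and its part in the differences between these libraries was not tested. Without GAP-scr replicate A, GAP-2 raised 11 factors and lowered 3, beside 17.1% and 6.77% of all genes. GAP-2/3 then raised 21 and lowered 6, beside 29.5% and 11.3% of all genes. Without both libraries high in Rn45s, GAP-2 raised 5 and lowered 1, which was Nop10 and no longer Rrp12, and GAP-2/3 raised 13 and lowered 5; the shares of all genes were 10.2% and 3.59% with GAP-2, and 25.8% and 10.2% with GAP-2/3. Without GAP-2/3 replicate A, Rrp12 and Rrp8 were the factors that still passed with GAP-2/3, where 10.3% of all genes were higher and 3.66% lower. Without GAP-2/3 replicate B 6 were higher and 6 lower, beside 18.1% and 8.69% of all genes. For GAP-2, leaving out either of its own libraries left 1 factor higher and none lower, where 3.21% to 4.08% of all genes were higher and at most 1.37% lower.

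Markers of dividing cells moved with the GAP-2/3 group as well. Of 12 such markers 6 were higher and none lower with GAP-2/3 (50% higher, beside 28.0% of all genes). After scaling to one median 3 were higher (25%, beside 17.5%), and under quantile normalization 2 (16.7%, beside 16.6%). The summed level of the 12 was 109 to 124 FPKM with GAP-2/3, against 69.0 to 91.5 in the other 4 libraries. Markers of undifferentiated myoblasts were higher in 5 of 7 and lower in 1 with GAP-2/3 (71.4% and 14.3%, beside 28.0% and 11.3%). Their sums were 260 and 280 FPKM against 215 to 234. The 11 myotube markers had 6 lower with GAP-2/3 (54.5%, beside 11.3% of all genes) and 7 with GAP-2 (63.6%, beside 4.18%). The myotube markers summed to 11350 and 12100 FPKM in GAP-scr, 6799 and 6988 in GAP-2, and 7391 and 7794 in GAP-2/3. Fibroblast markers had 2 higher and 2 lower of 5 with GAP-2/3 (40% each, beside 28.0% and 11.3% of all genes). Their sums were 1304 and 1533 FPKM against 1774 to 2098 in the other libraries. The 2 macrophage markers tested were low, 3.12 and 4.04 FPKM in sum in GAP-scr and 5.25 to 7.70 in the gapmer libraries. Both were higher with GAP-2, where 10.4% of all genes were. The adipocyte pair summed to between 2.05 and 3.05 with no call. The part of these cells in the changes of the factors was not tested.

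The gene Myc encodes a transcription factor known to drive ribosome production. It had 14.9 and 17.1 FPKM in GAP-scr, 18.3 and 19.8 in GAP-2, and 10.9 and 12.5 in GAP-2/3. It was lower in both GAP-2/3 libraries than in any other, with a change of -0.42 ± 0.12 against GAP-scr (limma adjusted p = 0.0185) and -0.66 ± 0.12 against GAP-2 (limma adjusted p = 0.00637). The part of Myc in the changes of the factors was not tested.

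The wider pathway, 123 further factors from a fixed list, also held genes that rose and genes that fell. GAP-2 raised 5 and lowered none (4.07%, beside 14.6% of all genes), GAP-2/3 raised 32 and lowered 13 (36.6%, beside 39.3%), and their median changes were 0.15 and 0.19. Scaled to one median, GAP-2/3 raised 9 and lowered 17 (21.1%, beside 33.8%). Among partners of RNA polymerase I, Taf1d, a subunit of its promoter factor, had 25.5 and 18.5 FPKM in GAP-scr, 31.8 and 37.4 in GAP-2, and 36.8 and 31.7 in GAP-2/3, and passed in both arms (0.64 ± 0.15 and 0.63 ± 0.15, limma adjusted p = 0.0178 and 0.00789). Bysl, which acts late in small subunit maturation as Rrp12 does, had 21.5 and 25.4, 17.9 and 17.6, and 13.5 and 16.1 FPKM, and fell by 0.63 with GAP-2/3 (SE 0.13, limma adjusted p = 0.00313). Rcl1 rose in the same comparison by 0.72 ± 0.13 (limma adjusted p = 0.00151). These 3 were picked after their values were seen. Of 80 cytosolic ribosomal protein genes, the products that the factors assemble with the RNA, GAP-2 raised 6 and lowered none (7.5%, beside 14.6% of all genes) and GAP-2/3 raised 11 and lowered 1 (15%, beside 39.3%). After scaling to one median none of the 80 passed with GAP-2, beside 12.3% of all genes. An unadjusted p under 0.05 in limma was then reached by 12 of the 80, beside 3362 of the 10993 genes tested. With GAP-2/3, 1 higher and 2 lower passed at one median (3.75%, beside 33.8% of all genes). Under quantile normalization GAP-2 raised 3 and lowered 1 (5%, beside 12.5% of all genes). GAP-2/3 then raised 8 and lowered 2 (12.5%, beside 34.4%).

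A feature that the choice of genes did not use is that Nop56, Nop58, Dkc1 and Ncl hold snoRNA genes within their spans, 5, 4, 1 and 2 in RefSeq, and that all 4 of these host genes were called higher with GAP-2/3 as deposited. After scaling to one median none of the 4 passed (limma adjusted p = 0.0934 for Dkc1, 0.077 for Nop56, 0.144 for Ncl and 0.184 for Nop58), nor under quantile normalization. Of the 45 factors without one, 7 were higher and 6 lower. Among 231 other tested protein-coding genes with a snoRNA gene inside, 26.0% were higher, near the 28.0% of all genes. This grouping was made after the changes were known, so the count of 4 is a description.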

How the data were processed

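The authors' deposited table holds FPKM values, with a column for each of 6 RNA-seq libraries; per the submitters' processing notes TopHat2, Cufflinks and Cuffdiff were among the tools, with roles not given. No value is exactly 0 and the lowest is 6.16e-09, so read numbers were not recovered and no count model was used. The ChIRP peaks carry a score deposited by the authors, used only to rank them.

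Values were taken as log2(FPKM + 1) for 10993 genes whose mean reached 1 FPKM. The 3 groups of 2 were fitted together in limma 3.58.1 (R 4.3.3) with an intensity trend; the Benjamini-Hochberg adjustment ran over every gene tested, with a threshold of 0.05. Fold changes on this scale understate the change of weakly expressed genes. The fit was also run on simulated data with independent noise and 200 genes changed in the GAP-2/3 group. In the libraries themselves 39.3% of genes passed with GAP-2/3, so that run does not show how the fit behaves here. The members, role lists, pathway and marker lists were chosen with earlier results of these data known. Values by library are given for the 5 most abundant factors, up to 3 per role with the smallest F-test p, the 5 strongest called changes in each direction and comparison, and factors under a peak; the rest that passed were added.

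Within-library ratios, snoRNA host genes and promoter motifs were examined after the changes were known. Of the 49 symbols all matched RefSeq, 1 by an older symbol. The alternatives tried were another pseudocount (0.1), other filters (none, or 5 FPKM), 2 scalings, no trend, the replicate letter as a block, only the groups compared, each library left out, both libraries high in Rn45s left out, and a threshold of 0.1.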

Additional observations from a re-analysis of the deposited data

Results flagged for a closer look

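The factors themselves gave no difference between the arms that passed. Among the 123 further factors of the pathway and the 5 genes of the MYC network tested, 6 differed between GAP-2/3 and GAP-2 by the direct test of the arms (limma adjusted over all genes tested). They were 4 of the 123 (3.25%) and 2 of the 5, beside 10.1% of all genes, so the pathway had a smaller share than all genes. Myc was lower with GAP-2/3, at a log2 change of -0.66. Mxd4, a member of the MYC network that pairs with MAX, was higher by 0.50, with 35.6 and 42.2 FPKM in GAP-2/3 against 28.9 and 25.4 in GAP-2. Ubtf, the factor that opens ribosomal DNA for RNA polymerase I, was higher by 0.41 (limma adjusted p = 0.0474), which was not past the threshold after scaling to one median, at 0.0734. Znhit6, a snoRNP assembly factor, was higher by 0.43 (limma adjusted p = 0.048; 0.0788 with one median). Exosc10, a nuclease of the nuclear exosome, had 15.2 and 15.9 FPKM in GAP-2 and 21.2 and 22.1 in GAP-2/3, a difference of 0.45 (limma adjusted p = 0.0238). Ddx31, a helicase of large subunit assembly, was lower by the direct test, at -0.44, with 7.55 and 8.45 FPKM in GAP-2 and 5.67 and 5.57 in GAP-2/3, while GAP-scr had 5.67 and 4.76. Groups of 2 libraries allow no check for a single library that stands apart.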

How the results depend on the processing

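Of 300 repeats of the 20 called changes under the alternatives, 234 kept their side of the threshold, 66 did not pass and none turned its sign. The factors called lower with GAP-2, 1 as reported, numbered 2 with the libraries scaled to one median, 2 under quantile normalization and 2 at a threshold of 0.1. All genes then stood at 5.89%, 6.25% and 7.1% lower, against 4.18% as reported. Factors called higher with GAP-2, 2 as reported, numbered 1 with one median, 1 with only the libraries of the groups compared and 6 at 0.1. The shares of all genes higher were 6.44%, 6.14% and 16.2%, against 10.4% as reported. With GAP-2/3, 11 lower were called under quantile normalization against 6 as reported, and 5 higher under either scaling against 11. All genes shifted likewise, from 11.3% to 17.8% lower under quantile normalization and from 28.0% higher to 17.5% with one median and 16.6% under quantile normalization. For GAP-2/3 against GAP-2, with 0 in both directions as reported, 4 lower and 1 higher passed with only the libraries of these groups. The shares of all genes there were 6.52% and 12.2%. At 0.1, 2 passed as lower, beside 5.72% of all genes, and none as higher, beside 10.5%. Leaving out each library in turn gave 0 to 3 lower and 1 to 11 higher with GAP-2, 1 to 7 lower and 1 to 21 higher with GAP-2/3, and 0 to 4 lower and 0 to 1 higher between the arms; a group left with 1 library is assumed to vary like the others. The cause of these shifts was not tested. Leaving out a library leaves fewer samples, and it also changes the estimate of the spread that the groups share.

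The replicate letters were not shown to pair the libraries: the deviations of replicate A correlated across genes at 0.36 between GAP-scr and GAP-2, -0.131 between GAP-scr and GAP-2/3 and -0.181 between GAP-2 and GAP-2/3. With the replicate letter as a block, GAP-2 raised 4 factors and lowered 1, beside 12.4% and 5.35% of all genes. Ncl and Utp11l were among those raised (limma adjusted p = 0.0426 and 0.0381). With GAP-2/3, 18 passed, 12 higher and 6 lower, beside 28.9% and 11.7% of all genes.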
